A study of Rattus norvegicus with 18 samples.

Results

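RNA that came down with an antibody to hnRNP K was compared with RNA that came down with an antibody to La/SSB, across all transcripts of regenerating rat sciatic nerve axoplasm. Axoplasm is the cytoplasm that can be pressed out of nerve axons. It was taken from the nerve proximal to a crush, 7 days after the injury, in SD rats, and all groups share that injury and time point. In RNA immunoprecipitation (RIP) an antibody pulls down an RNA-binding protein together with the RNA on it. The hnRNP K RIP and the La/SSB RIP had 3 libraries each, 6 of the 18 libraries of the series. Unprecipitated axoplasm RNA (Input) and a FLAG RIP, made with an antibody to an epitope tag that untagged rats lack, had 3 libraries each and are given beside the comparison. Age, sex and any pooling of animals are not stated in the labels. Whether the replicates are separate animals is not stated either, and p-values may thus reflect technical spread alone.

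hnRNP K is a shuttling RNA-binding protein whose KH domains grip single-stranded, cytosine-rich RNA. It takes part in splicing, RNA stability and translation, and in the frog Xenopus it is needed for cytoskeletal mRNAs of growing axons. La/SSB binds the uridine-rich 3′ ends that RNA polymerase III leaves on its transcripts and shields them from exonucleases. It is also known to bind certain mRNAs, among them 5′ TOP mRNAs, which encode the translation machinery and begin with a cytosine followed by a run of pyrimidines.

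The 6 libraries held 8337028 to 16412065 reads, and the hnRNP K libraries were the deeper ones (12682770 to 16412065 against 8337028 to 9768341). Col1a1, a chain of collagen I, alone took 11.3% to 20.4% of the hnRNP K reads and 4.34% to 6.72% of the La/SSB reads. Libraries correlated at 0.936 to 0.967 within hnRNP K and at 0.868 to 0.922 within La/SSB (log2 CPM across entries, which are not independent replicates). In La/SSB RIP 1 no entry has fewer than 10 reads, and 160 entries have exactly that number, a floor that no other library shows. Entries low in that library may therefore be missing from the table. Of the entries tested, 14 had no reads with hnRNP K and 0 had none with La/SSB. Counts for the small RNA lists are also given without La/SSB RIP 1. Such a fit cannot bring missing entries back, so it does not address that gap. Of the neuronal markers, Gap43 had 1989 reads with hnRNP K and 2333 with La/SSB and Nefm 371 and 1310, while Tubb3 had 155 and 78 and Prph 26 and 103. Markers of other nerve cells were also present, from S100b of Schwann cells (46297 and 31598 reads) and Cdh5 of endothelium (19358 and 2661) down to Pmp22 (1181 and 639) and Kdr (441 and 302), so the labelled source held RNA of other nerve cells. Markers of erythrocytes and skeletal muscle were present too, from Hba1 (73314 and 85450 reads) down to Myh1 (114 and 421). In such a bulk sample fewer cells of a type and less RNA per cell cannot be told apart.

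Of 13416 transcript entries, 12964 had enough reads to be tested. With edgeR's quasi-likelihood test, 2292 were higher with hnRNP K and 2001 higher with La/SSB at an adjusted p under 0.05, which is 17.7% and 15.4% of the entries tested and 33.1% in all. The libraries of the groups did not overlap in 6309 entries (48.7%; 24.6% higher with hnRNP K and 24.0% with La/SSB). The split depends on scaling. TMM scaling, used throughout, sets the bulk of transcripts equal between libraries, and the median log2 fold change (hnRNP K minus La/SSB) over all entries was -0.14. Scaled by total counts instead, the median was -1.01 and the split was 797 against 5384, so fold changes are relative to most other transcripts and lists are compared with the median of all entries. Without hnRNP K RIP 2 or hnRNP K RIP 3, 1266 and 1197 entries were higher with La/SSB. Levels are in TMM-scaled CPM (reads per 1000000 reads), log2 fold changes are given ± SE, and means ± SD are over 3 libraries.

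**Figure D1:**
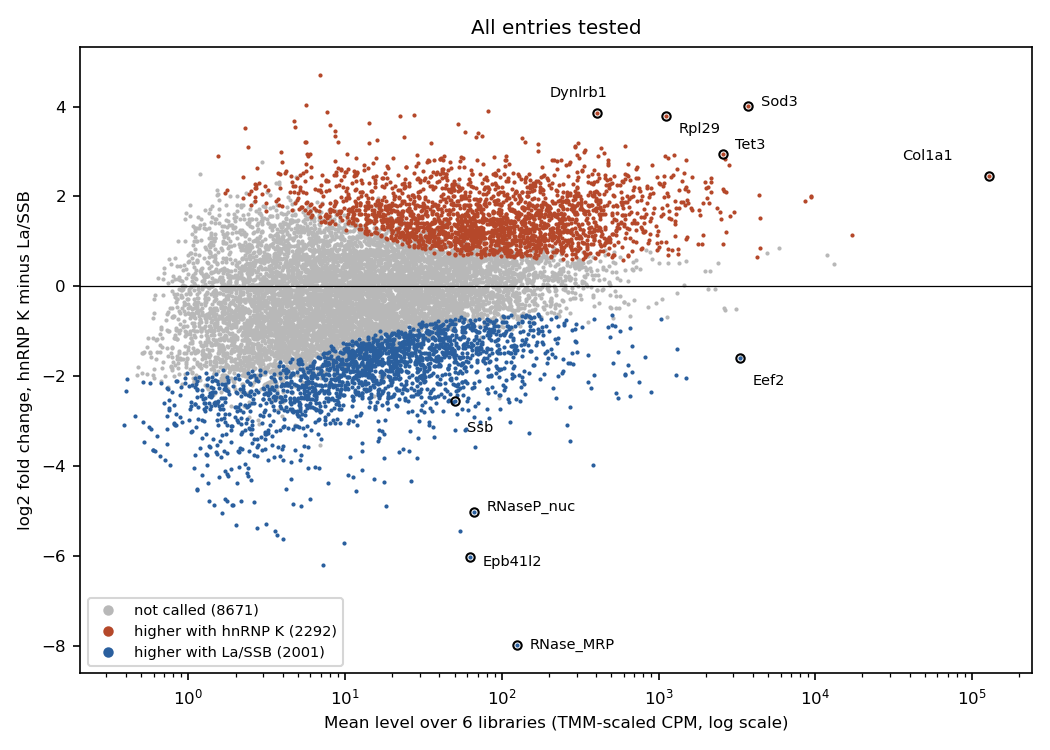
Log2 fold change (hnRNP K minus La/SSB, vertical) against mean level over 6 libraries (TMM-scaled CPM, log scale) for the 12964 entries tested. Red entries (2292) were higher with hnRNP K and blue entries (2001) higher with La/SSB; the lowest point is RNase_MRP at -7.97, and Col1a1 is by far the most abundant entry.

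The lowest ratio of all entries was that of RNase_MRP, one of the small RNAs that RNA polymerase III makes. RNase_MRP, the RNA of a ribonuclease that cuts precursor ribosomal RNA (chromosome 5), was at 315, 239.9 and 191 CPM in the La/SSB libraries and at 0.863, 0.814 and 0.986 CPM with hnRNP K. The groups lay far apart, with 9053 reads against 29 (log2 fold change -7.97 ± 0.34, adjusted p = 2.44e-07). RNaseP_nuc, the RNA of the ribonuclease that trims transfer RNA precursors, was at 184, 131 and 72.0 CPM with La/SSB and at 5.56, 3.46 and 2.71 CPM with hnRNP K in its entry on chromosome 15. It too separated the groups (-5.01 ± 0.42, adjusted p = 3.22e-05). Y_RNA on chromosome 4, one of the small RNAs of the Ro particle, was at 56.4, 40.0 and 55.4 CPM with La/SSB and at 4.03, 2.03 and 1.23 CPM with hnRNP K (-4.33 ± 0.46, adjusted p = 5.91e-05).

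Of 57 polymerase III entries tested, 32 were higher with La/SSB and 1 with hnRNP K. These are 56.1% and 1.75%, against 15.4% and 17.7% of all entries, and the list's median was -2.24 against -0.14. Without La/SSB RIP 1 the counts were 26 and 0. Entries low in that library may be missing from the table, so the hnRNP K side may be undercounted in both fits. By kind, 15 of 26 U6 entries (the catalytic spliceosomal RNA) and 9 of 19 7SK entries (a regulator of transcription elongation) were higher with La/SSB. So were both RNaseP_nuc entries, 2 of 3 Metazoa_SRP entries (the RNA of the signal recognition particle) and the only Vault entry, which had 3 reads with hnRNP K. An example is the U6 entry on chromosome 14, at 54.3, 28.7 and 19.2 CPM with La/SSB and 0.192, 3.15 and 1.40 with hnRNP K (-4.35 ± 0.70). The entry that went the other way was also a U6 copy, on chromosome 1, at 2.01, 7.02 and 3.45 CPM with hnRNP K and 0.839, 0.535 and 1.28 CPM with La/SSB (2.12 ± 0.71, adjusted p = 0.0373). That call was lost on leaving out 5 of the 6 libraries in turn, and U6 summed over its entries was lower with hnRNP K (-2.46). U6 and 7SK entries are near-identical copies, and reads may be assigned to the wrong one.

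Among small RNAs made by RNA polymerase II or cut out of introns, every entry called was likewise higher with La/SSB. Entries with fewer than 10 reads in La/SSB RIP 1 may be missing from the table, so counts on the hnRNP K side may be too low. Of 16 spliceosomal and related small nuclear RNAs, 9 were higher with La/SSB and 0 with hnRNP K (median -2.58). The La/SSB share was 56.2%, against 15.4% of all entries. Small nucleolar and Cajal body RNAs guide the chemical modification of other RNAs. Of 56 such entries, 23 were higher with La/SSB (41.1%) and 0 with hnRNP K (median -1.60). SCARNA18, a Cajal body RNA, was at 21.8, 53.1 and 12.8 CPM with La/SSB and at 1.15, 1.93 and 1.15 CPM with hnRNP K (-4.28 ± 0.60, adjusted p = 2.77e-04). The lowest La/SSB library was still far above the highest hnRNP K library. SNORA79, a guide for pseudouridylation, was at 16.7, 22.1 and 20.7 CPM against 0.288, 1.93 and 0.739 CPM (-4.20 ± 0.62). Without hnRNP K RIP 2 or 3, 12 and 13 of the small nucleolar entries were called, and without La/SSB RIP 1, 17 were. Without that library 8 small nuclear entries were higher with La/SSB and 1 with hnRNP K. Where 1 short entry has few reads, a fitted fold change depends on the prior count, so such values describe direction more than size.

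Of 9 microRNA genes tested, 3 were higher with La/SSB (33.3%) and 0 with hnRNP K. Mir142, which is active in blood lineages and lies on chromosome 10, was at 19.5, 5.44 and 18.3 CPM with La/SSB and 1.05, 2.24 and 1.73 CPM with hnRNP K (-3.03 ± 0.62, adjusted p = 0.00312). Mir675, cut from the imprinted H19 RNA on chromosome 1, was at 277, 535 and 435 CPM with La/SSB and 82.3, 251 and 194 CPM with hnRNP K (-1.24 ± 0.37, adjusted p = 0.0208). The groups did not overlap, but hnRNP K RIP 2 came close to La/SSB RIP 1. The Mir675 call held in 2 of the 6 fits that each left out a library (adjusted p up to 0.0935), and its sign turned when a trend on transcript length was removed (0.31, adjusted p = 0.540). Leaving out hnRNP K RIP 1, La/SSB RIP 2 or La/SSB RIP 3 left 1 microRNA gene called higher with La/SSB, and leaving out hnRNP K RIP 3 or La/SSB RIP 1 added 1 higher with hnRNP K. Without La/SSB RIP 1, 2 were higher with La/SSB. Genes low in that library may be missing from the table here too. Reads on these genes can come from the precursor or host RNA as well as from mature arms. The mature arms are shown because seeds identify the RNAs whose genes were called; they are from RefSeq (GRCr8), with bases 2 to 8 in capitals, and no seed was shared among the 4.
rno-miR-142-5p: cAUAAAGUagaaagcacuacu
rno-miR-142-3p: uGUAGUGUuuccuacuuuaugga
rno-miR-675-5p: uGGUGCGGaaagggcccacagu
rno-miR-675-3p: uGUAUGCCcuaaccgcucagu

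Among mRNAs of cytosolic ribosomal proteins, all entries called but 1 were lower with hnRNP K. Of 75 entries, 48 were higher with La/SSB (64.0%, against 15.4% of all entries), 1 was higher with hnRNP K and 26 were not called, and the median was -1.74. Rps4x, a protein of the small subunit, was at 992, 1688 and 1824 CPM with La/SSB and 249.9, 275 and 366 CPM with hnRNP K (-2.34 ± 0.27, adjusted p = 9.18e-05). Rpl5, which carries 5S ribosomal RNA into the large subunit, was at 792, 1326 and 1547 CPM with La/SSB and 189, 322 and 328 CPM with hnRNP K (-2.13 ± 0.30, adjusted p = 2.70e-04). In each the groups were separate, with La/SSB RIP 1 the lowest of its group. Rpl4, a large subunit protein, differed less (935, 1394 and 1562 CPM against 654, 819 and 897 CPM; -0.72 ± 0.24, adjusted p = 0.0366). The call for Rpl4 held in only 1 of the 6 fits that each left out a library.

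The strongest ribosomal differences were in Rps27a, which is made as a fusion with ubiquitin. Its entry on chromosome 14 was at 6.48, 33.6 and 32.6 CPM with La/SSB and 1.15, 1.53 and 1.31 CPM with hnRNP K (-4.09 ± 0.65, adjusted p = 5.90e-04). The pseudogene entry Rps27a-ps1, on chromosome 5, was at 259, 699 and 1178 CPM against 28.5, 59.0 and 49.4 CPM (-3.96 ± 0.49, adjusted p = 1.22e-04). Reads of the gene and of processed copies can be exchanged in counting, here and for other ribosomal proteins. The exception on the hnRNP K side was Rpl29, a large subunit protein known to bind heparin. It was at 1516, 1939.5 and 2792 CPM with hnRNP K and 74.4, 196 and 179.5 CPM with La/SSB, with no overlap (3.80 ± 0.38, adjusted p = 4.32e-05). It was among the 15 highest fold changes of entries with a mean of at least 20 CPM in the higher group.

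Translation factors and other TOP mRNAs were mixed. Of 43 entries, 19 were higher with La/SSB and 6 with hnRNP K (44.2% and 14.0%; median -0.80). Eef1a1, which brings aminoacyl transfer RNA to the ribosome, was at 2227, 2228 and 2813 CPM with La/SSB and 440.1, 613 and 716 CPM with hnRNP K (-2.04 ± 0.24, adjusted p = 9.41e-05). Eef2, the translocation factor, was at 5162, 5231 and 4510.0 CPM against 1271, 1739 and 1901 CPM (-1.60 ± 0.22, adjusted p = 2.66e-04), the highest level among entries called higher with La/SSB. Eif3a, the largest initiation factor 3 subunit, also lay on the La/SSB side (-1.95 ± 0.21). On the hnRNP K side stood Pabpc1, the cytoplasmic poly(A)-binding protein, whose entry of 2190 nt was at 2266, 2232 and 2578 CPM against 983, 1246 and 1443 CPM (0.95 ± 0.21, adjusted p = 0.00532). With total count scaling that difference shrank to 0.07.

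The start of a TOP mRNA can be read from its annotated promoter. A cytosine followed by at least 5 pyrimidines, starting within 6 bases of the RefSeq (GRCr8) transcription start on the transcribed strand, was counted. It was present in 58.3% of 48 ribosomal protein symbols with a promoter entry and in 11.2% of the 7877 tested symbols that matched. All promoters of the table gave 11%. Among ribosomal protein symbols the share was 59.4% of the 32 higher with La/SSB and 53.3% of the 15 not called. Among all symbols it was 14.3% of those higher with La/SSB and 8.76% of those higher with hnRNP K. Other motifs can overlap this run, and an annotated start can miss the used one, so a match is a description only. The 30 bases around the start are shown for 5 mRNAs named here, with a counted run in capitals, from its first cytosine in the window to its last pyrimidine. Rpl37, Eef1a1 and Rpl4 hold a run and Rpl5 does not. Rpl29, the ribosomal protein mRNA on the hnRNP K side, holds one too. Rps4x, Eef2 and Tpt1, also named in this report on the La/SSB side, hold none and are not shown. The Rpl37 entries tested lie on other chromosomes than the start shown. The positions are chr2:55942930-55942959 (plus strand) for Rpl37, chr8:88225055-88225084 (minus) for Eef1a1, chr14:1995211-1995240 (minus) for Rpl5, chr8:73566462-73566491 (plus) for Rpl4 and chr8:115947628-115947657 (plus) for Rpl29.
Rpl37: tggtaggcgtaCTTTCTCTTCCggtctctt
Eef1a1: tcgccttggacgttCTTTTTCgcaacgggt
Rpl5: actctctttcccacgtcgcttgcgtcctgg
Rpl4: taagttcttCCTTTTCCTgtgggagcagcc
Rpl29: gggcctttctCTTTCTCTTCCggtcccagg

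Among mRNAs of the respiratory chain, the proteasome and the chaperones, most entries called were also on the La/SSB side. Of 79 nuclear-encoded oxidative phosphorylation entries, 35 were higher with La/SSB and 3 with hnRNP K (44.3% and 3.80%; median -1.23). Atp5b, the catalytic subunit of ATP synthase, was at 131, 244 and 277 CPM with La/SSB and 35.1, 67.0 and 73.9 CPM with hnRNP K (-1.89 ± 0.34, adjusted p = 0.00142). Uqcrh, the hinge protein of complex III, followed (-1.93 ± 0.39), and Cox7a2l, which helps assemble respiratory supercomplexes, differed by -1.71 ± 0.26. Ndufs4, an accessory subunit of complex I, was instead higher with hnRNP K, at 254, 206 and 165 CPM against 40.9, 74.6 and 45.4 CPM (1.96 ± 0.29, adjusted p = 3.57e-04). Without La/SSB RIP 3 or hnRNP K RIP 1, 21 and 23 oxidative phosphorylation entries were called on the La/SSB side.

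Of 39 proteasome subunit entries, 18 were higher with La/SSB and 2 with hnRNP K (46.2% and 5.13%; median -1.40). Psmb4, a subunit of the core particle, was at 65.9, 155 and 199.6 CPM with La/SSB and 8.44, 32.6 and 21.9 CPM with hnRNP K (-2.73 ± 0.49, adjusted p = 0.00131). Psmc3, an ATPase of the cap, differed by -2.24 ± 0.31. The exceptions were Psmd11, a lid subunit (1.91 ± 0.24), and Psma3, a core subunit (1.68 ± 0.23). Of 30 chaperone entries, 20 were higher with La/SSB and 1 with hnRNP K (66.7% and 3.33%; median -1.20). Cct2 and Cct5, subunits of the chaperonin that folds actin and tubulin, differed by -1.61 ± 0.26 and -1.60 ± 0.27. Cryab, a small heat shock protein, was the exception, at 432, 353 and 246 CPM with hnRNP K and 108, 114 and 61.3 CPM with La/SSB (1.86 ± 0.29, adjusted p = 5.73e-04). The chaperone count on the La/SSB side was 13 without hnRNP K RIP 3.

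**Figure D2:**
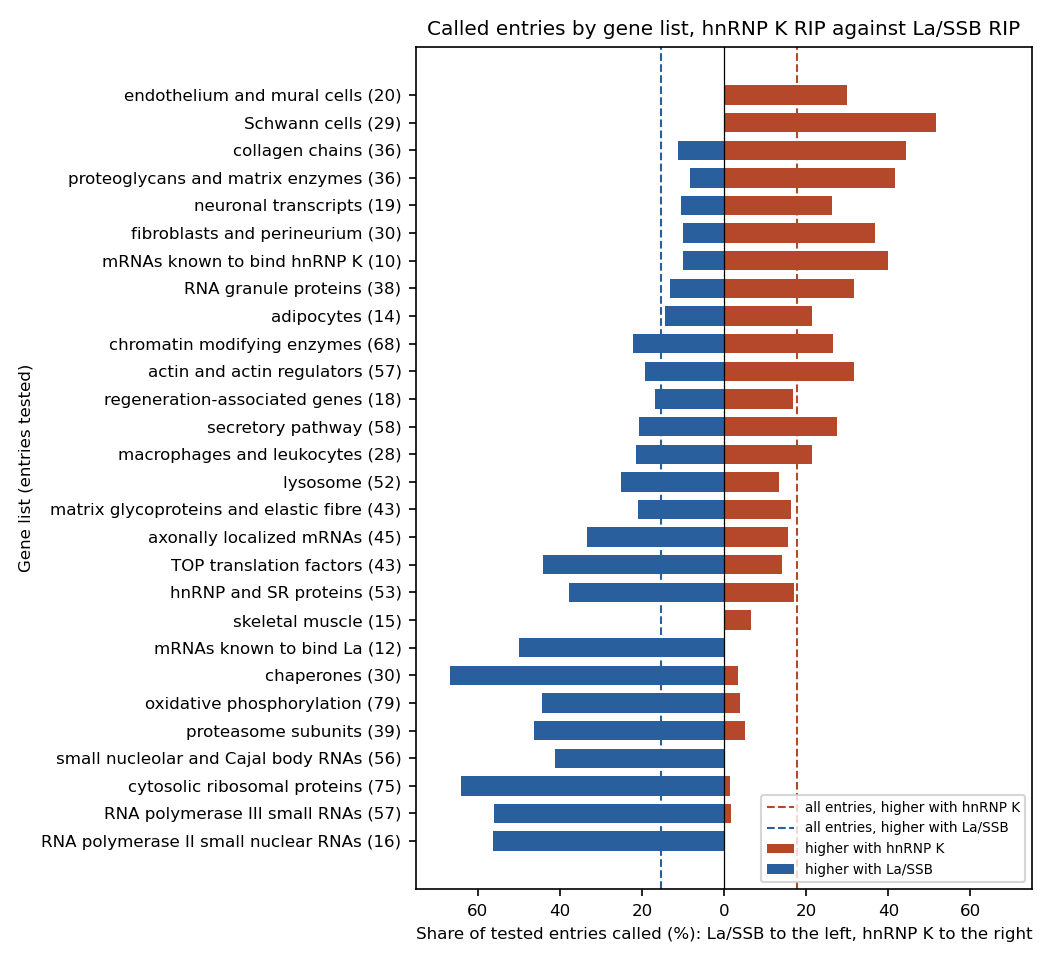
Share of tested entries called higher with hnRNP K (red, to the right) or higher with La/SSB (blue, to the left) for gene lists with at least 10 entries tested, ordered by median log2 fold change. Dashed lines mark the shares over all entries, 17.7% and 15.4%; ribosomal proteins (64.0%) and chaperones (66.7%) reach farthest to the left and Schwann cell transcripts (51.7%) farthest to the right.

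mRNAs of RNA-binding proteins themselves divided by kind. Ssb, the mRNA of La, was at 57.0, 92.0 and 109 CPM with La/SSB and 15.3, 17.0 and 11.6 CPM with hnRNP K, without overlap (-2.54 ± 0.32, adjusted p = 1.29e-04). Its level in the FLAG RIP was 74.8, 67.7 and 115 CPM and in Input 29.5, 26.1 and 27.3 CPM, on the scale of all 18 libraries. The mRNA of hnRNP K itself, Hnrnpk, was not analysed here. The mRNAs of the paralogs hnRNP F and hnRNP H1 were near the detection limit in both precipitates and did not pass the test. Hnrnpf was at 2.97, 1.53 and 0.986 CPM with hnRNP K and 1.07, 1.61 and 3.08 CPM with La/SSB (-0.06 ± 0.69). Hnrnph1 was at 0.384, 2.54 and 1.73 CPM against 2.44, 2.95 and 2.05 CPM (-0.64 ± 0.70).

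Of 53 entries for hnRNP and SR proteins, the main families of splicing regulators, 20 were higher with La/SSB and 9 with hnRNP K (37.7% for La/SSB; median -0.83). Hnrnpa1, an abundant splicing repressor, was at 97.1, 165 and 232 CPM with La/SSB and 23.4, 36.1 and 33.4 CPM with hnRNP K (-2.41 ± 0.33, adjusted p = 2.42e-04). Hnrnpul2 (-1.59 ± 0.29) and Srsf5, an SR protein (-1.38 ± 0.28), lay on the same side. Pcbp2, a poly(C)-binding KH protein related to hnRNP K, was on the other, at 289, 209 and 334 CPM with hnRNP K and 67.5, 35.3 and 61.4 CPM with La/SSB (2.34 ± 0.29, adjusted p = 1.31e-04). Srsf2 (1.87 ± 0.30) and Hnrnpul1 (1.14 ± 0.20) were also higher with hnRNP K. The La/SSB side held 12 of these entries without hnRNP K RIP 3.

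Of 38 entries for proteins of RNA granules and axonal RNA transport, 12 were higher with hnRNP K and 5 with La/SSB (31.6% and 13.2%; median 0.50). Mbnl2, a muscleblind splicing and localization factor, was at 1256, 1169 and 1096 CPM with hnRNP K and 331, 553 and 451 CPM with La/SSB (1.40 ± 0.23, adjusted p = 7.55e-04). Pum2, a translational repressor, and Atxn2, a poly(A)-binding protein partner, followed at 1.27 ± 0.27 and 1.12 ± 0.20. G3bp1, a scaffold of stress granules, was instead at 185, 165 and 176 CPM with La/SSB and 95.2, 89.2 and 74.4 CPM with hnRNP K (-1.02 ± 0.22, adjusted p = 0.00363). Ybx1, a cold shock protein that packs mRNA, was also lower with hnRNP K (-1.42 ± 0.31). Without hnRNP K RIP 2, hnRNP K RIP 3 or La/SSB RIP 3, the La/SSB count was 3, 2 and 3. With total count scaling the list had 5 entries higher with hnRNP K and 12 higher with La/SSB. Against FLAG RIP in a fit of all 18 libraries, Mbnl2 was at 0.10 ± 0.25 with hnRNP K and -1.28 ± 0.25 with La/SSB. Pum2 was at 0.71 ± 0.27 and -0.52 ± 0.27, and Atxn2 at -0.01 ± 0.30 and -1.11 ± 0.30.

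The most abundant entry called higher with hnRNP K encodes secreted matrix. Col1a1 was at 321397, 187511 and 139383 CPM with hnRNP K and 50028, 37653 and 30989 CPM with La/SSB. The lowest hnRNP K library was more than any La/SSB library (2.45 ± 0.35, adjusted p = 3.13e-04). Col6a2, a chain of the microfibrillar collagen VI, was at 6106, 4526 and 3952 CPM against 793, 865 and 605 CPM (2.69 ± 0.25). Col4a1, of the basement membrane, was at 4449, 3133 and 3161 CPM against 843, 742 and 546 CPM (2.33 ± 0.25). Col1a2, the partner chain of Col1a1, was far scarcer in this table, at 54.6, 40.2 and 31.2 CPM against 3.66, 2.59 and 2.57 CPM, and differed more (3.79 ± 0.40).

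Of 36 collagen entries, 16 were higher with hnRNP K and 4 with La/SSB (44.4% and 11.1%), and the median was 0.90, or 1.04 above that of all entries. With total count scaling the median was -0.01, which is 1.01 above that of all entries, and the counts were 10 and 10. The chains on the La/SSB side included Col14a1, which coats fibrils, at 420.2, 229 and 194 CPM against 161, 69.2 and 83.2 CPM (-1.43 ± 0.36, adjusted p = 0.00997), Col6a6 (-1.31 ± 0.34) and Col16a1 (-1.46 ± 0.33). The Col6a6 call was lost without hnRNP K RIP 3 (adjusted p = 0.0565). On that side 2 chains were called without hnRNP K RIP 3. Collagen entries together held 13.7% to 23.4% of hnRNP K reads, 6.78% to 9.92% of La/SSB reads and 6.66% to 11.5% of Input reads.

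Of 36 proteoglycans and matrix enzymes, 15 were higher with hnRNP K and 3 with La/SSB (41.7% and 8.33%; median 0.70, and -0.21 with total count scaling). Bgn, the small leucine-rich proteoglycan biglycan, was at 19830.3, 12982 and 12162 CPM with hnRNP K and 4053, 3708 and 3301 CPM with La/SSB (2.02 ± 0.25, adjusted p = 1.29e-04). Timp2, an inhibitor of matrix metalloproteinases, differed by 2.13 ± 0.23 and Sdc2, the cell-surface proteoglycan syndecan 2, by 1.82 ± 0.24. Gpc3, a glypican, lay on the La/SSB side (-0.95 ± 0.21), where 1 entry was called without hnRNP K RIP 2 or without hnRNP K RIP 3.

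Matrix glycoproteins did not share a direction. Of 43 entries, 7 were higher with hnRNP K and 9 with La/SSB, close to the shares of all entries, and the median was -0.27. Nid1, which links laminin to collagen IV, was at 15494, 15103 and 10173 CPM with hnRNP K and 3874, 3634 and 3334 CPM with La/SSB (1.91 ± 0.24, adjusted p = 1.29e-04). Sparc, a collagen-binding protein, was at 31335, 21350.0 and 18278 CPM against 14308, 10255 and 7551 CPM (1.14 ± 0.29, adjusted p = 0.0107). Laminin chains split. Lamc1 was higher with hnRNP K (1.52 ± 0.25). Lama4, at 364, 359 and 263 CPM with La/SSB and 138, 106 and 84.4 CPM with hnRNP K (-1.58 ± 0.25), and Lamb1 (-1.75 ± 0.26) were higher with La/SSB. The La/SSB count was 4 and 5 without hnRNP K RIP 2 or 3.

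Among transcripts that mark Schwann cells, vessels and fibroblasts, most entries called were higher with hnRNP K, which with total count scaling no longer held for vessels. Of 29 Schwann cell entries, 15 were higher with hnRNP K and 0 with La/SSB (51.7% against 17.7% of all entries; median 1.04). Dag1, the laminin receptor dystroglycan, differed by 1.29 ± 0.23. S100b, a calcium-binding protein, was at 1127, 1442 and 1673 CPM against 945, 812 and 864 CPM (0.69 ± 0.21, adjusted p = 0.0253), its call held in 2 of 6 fits without 1 library, and its sign turned with total count scaling (-0.16). With that scaling 4 Schwann entries were higher with hnRNP K and 2 with La/SSB. The summed share of Schwann entries was 0.616% to 0.705% of hnRNP K reads and 0.479% to 0.619% of La/SSB reads, ranges that overlap.

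Of 20 endothelial and mural entries, 6 were higher with hnRNP K and 0 with La/SSB (30.0%; median 1.07). Cdh5, the cadherin of endothelial junctions, was at 775, 571 and 465 CPM with hnRNP K and 79.2, 81.9 and 60.3 CPM with La/SSB (3.03 ± 0.26, adjusted p = 3.22e-05). Tie1, an endothelial receptor kinase, and Rgs5, a pericyte marker, differed by 1.44 ± 0.24 and 1.51 ± 0.27. The list's summed share was 0.0845% to 0.0946% of hnRNP K reads and 0.0610% to 0.0723% of La/SSB reads. With total count scaling 2 entries were higher with hnRNP K and 6 with La/SSB, and without hnRNP K RIP 1, La/SSB RIP 1 or La/SSB RIP 2, 1 was higher with La/SSB.

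Of 30 fibroblast and perineurial entries, 11 were higher with hnRNP K and 3 with La/SSB (36.7% for hnRNP K; median 0.65). Under total count scaling the counts were 7 and 6 and the median was -0.25. Cldn1, a tight junction protein of the perineurium, was at 3213, 2102 and 1466 CPM with hnRNP K and 729.6, 613 and 497 CPM with La/SSB (1.88 ± 0.29, adjusted p = 4.88e-04). Igfbp6, a binding protein of insulin-like growth factors, was instead at 227, 213 and 154 CPM with La/SSB and 93.2, 70.4 and 59.2 CPM with hnRNP K (-1.41 ± 0.26, adjusted p = 0.00140). The fibroblast entries made up 14.8% to 23.7% of hnRNP K reads and 7.32% to 9.27% of La/SSB reads, most of it Col1a1. Without hnRNP K RIP 1 or La/SSB RIP 3, 1 fibroblast entry was called higher with La/SSB. The part of cell-type makeup in the matrix and marker differences was not tested.

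Macrophage and leukocyte transcripts went both ways, with 6 of 28 higher in each direction (21.4%; median -0.11). Fcer1g, the signalling chain of Fc receptors, was at 2373, 2147 and 2881 CPM with hnRNP K and 233, 502 and 558 CPM with La/SSB (2.52 ± 0.31, adjusted p = 1.25e-04). Cybb, the oxidase of phagocytes, differed by 1.86 ± 0.21. Apoe, a lipid carrier, was instead at 138, 149 and 124 CPM with La/SSB and 19.1, 31.6 and 29.2 CPM with hnRNP K (-2.36 ± 0.27, adjusted p = 8.02e-05). Trem2, a lipid receptor of phagocytes, and Mrc1, the mannose receptor, also lay on the La/SSB side (-1.83 ± 0.32 and -1.57 ± 0.25). A split of this kind within markers of 1 cell type was also seen in adipocyte entries. Adipoq (2.24 ± 0.53) and Plin1 (1.85 ± 0.45), a hormone and a lipid droplet coat, were higher with hnRNP K. Cfd (-3.13 ± 0.33) and Fabp4 (-3.04 ± 0.47), a complement factor and a fatty acid carrier, were higher with La/SSB. The Adipoq value is that of 1 entry with 465 and 109 reads, and another Adipoq entry was not called. Without La/SSB RIP 1, 6 of 14 adipocyte entries were higher with hnRNP K, against 3 with all libraries.

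**Figure D3:**
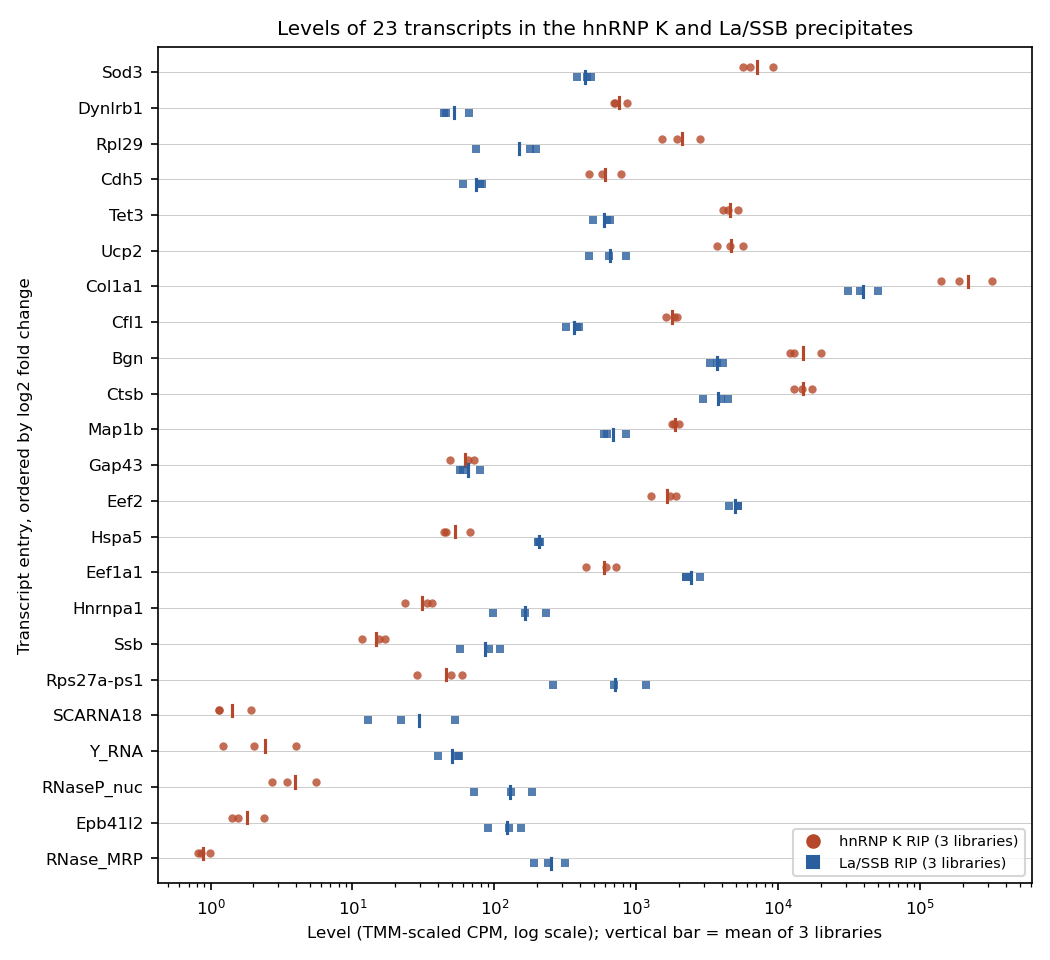
Level of 23 transcripts (TMM-scaled CPM, log scale) in each of the 3 hnRNP K libraries (red circles) and 3 La/SSB libraries (blue squares), with a vertical bar at the mean, ordered by log2 fold change. The groups overlap only in Gap43. RNase_MRP, at the bottom, has a log2 fold change of -7.97, and Sod3, at the top, one of 4.01.

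Axonal and neuronal mRNAs gave no single direction. Of 45 axonally localized mRNAs, 15 were higher with La/SSB and 7 with hnRNP K (33.3% and 15.6%; median -0.51). The La/SSB side was led by Eef1a1 and by Tpt1, a TOP mRNA for a tumour protein that axons translate, at 773, 989 and 1048 CPM against 134, 181 and 193 CPM (-2.47 ± 0.23, adjusted p = 3.88e-05). The La/SSB count was 9 without hnRNP K RIP 1 or 3. On the hnRNP K side was Map1b, a microtubule-associated protein of growing axons, at 1835, 1984 and 1783 CPM with hnRNP K and 588, 841 and 619 CPM with La/SSB (1.45 ± 0.21, adjusted p = 3.78e-04). Cfl1, cofilin, which severs actin filaments, was at 1605, 1841 and 1918 CPM against 317, 382 and 396 CPM (2.29 ± 0.21, adjusted p = 3.63e-05). Rhoa, a small GTPase that regulates actin and is translated in axons, was at 2064, 2026 and 2099 CPM against 548, 680.5 and 628 CPM (1.74 ± 0.20, adjusted p = 8.38e-05). In all 3 the libraries of a group stood close together. Against FLAG RIP in a fit of all 18 libraries, Rhoa was at 0.08 ± 0.23 with hnRNP K and -1.63 ± 0.23 with La/SSB. Cfl1 was at 0.68 ± 0.30 and -1.58 ± 0.31, and Map1b at 1.04 ± 0.26 and -0.38 ± 0.26.

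Of 19 neuronal entries, 5 were higher with hnRNP K and 2 with La/SSB (26.3% and 10.5%; median 0.66). Rtn1, a reticulon of the neuronal endoplasmic reticulum (2.28 ± 0.29), and Thy1, a surface protein of projection neurons (1.28 ± 0.36), lay on the hnRNP K side. The Thy1 call was lost without La/SSB RIP 2 (adjusted p = 0.0638) or La/SSB RIP 3 (adjusted p = 0.0578). Nefm, the medium neurofilament, was at 12.9, 65.4 and 34.9 CPM with La/SSB and 9.01, 12.6 and 12.6 CPM with hnRNP K (-1.72 ± 0.50, adjusted p = 0.0201). Nefl, the light neurofilament, was at 4.04, 33.3 and 27.6 CPM against 3.74, 8.34 and 2.88 CPM (-2.10 ± 0.69, adjusted p = 0.0351). La/SSB RIP 1 overlapped the hnRNP K libraries in Nefl and nearly did so in Nefm, and the calls held in 2 and 3 of the 6 fits without 1 library. Gap43, a membrane protein of growth cones, did not differ beyond its spread, at 72.3, 65.5 and 48.6 CPM with hnRNP K and 59.9, 78.6 and 57.1 CPM with La/SSB (-0.07 ± 0.26, adjusted p = 0.858). Without hnRNP K RIP 1, hnRNP K RIP 3 or La/SSB RIP 2, 0 neuronal entries were higher with La/SSB, and without La/SSB RIP 3, 1 was. Of 18 regeneration-associated genes, 3 were called each way (16.7%), close to the 17.7% and 15.4% of all entries. Stat3 and Klf7, transcription factors of the injury response, differed by 1.11 ± 0.19 and 1.05 ± 0.25. Jun, another, was at 373, 324 and 275 CPM with La/SSB and 157, 198 and 179 CPM with hnRNP K (-0.86 ± 0.21, adjusted p = 0.00892).

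Actin regulators, chromatin enzymes and the secretory pathway had calls in both directions. Of 57 actin entries, 18 were higher with hnRNP K and 11 with La/SSB (31.6% and 19.3%; median 0.22). Arpc1b, a subunit of the Arp2/3 complex, was on the La/SSB side at 827, 1033 and 1325 CPM against 189.6, 293 and 367 CPM (-1.91 ± 0.28, adjusted p = 3.49e-04). Without hnRNP K RIP 1, 2 or 3 or La/SSB RIP 3, the La/SSB count of actin entries was 6, 5, 5 and 7. Of 68 chromatin entries, 18 were higher with hnRNP K and 15 with La/SSB (26.5% and 22.1%). Tet3, a dioxygenase that oxidizes methylcytosine, was at 4405, 4054 and 5214 CPM with hnRNP K and 649, 623 and 495 CPM with La/SSB (2.95 ± 0.23, adjusted p = 3.16e-05). Arid1a, a subunit of the SWI/SNF remodeller, differed by 2.14 ± 0.20, whereas Chd4, the remodeller of the NuRD complex, lay on the La/SSB side (-1.21 ± 0.24). Of 58 secretory pathway entries, 16 were higher with hnRNP K and 12 with La/SSB (27.6% and 20.7%). Arcn1, a coat protein of COPI vesicles, stood at 2.26 ± 0.21, and Sec11a, a catalytic subunit of signal peptidase, at -2.55 ± 0.31. Under total count scaling the splits turned to 10 with hnRNP K against 22 with La/SSB for actin, 6 against 28 for chromatin and 3 against 26 for the secretory pathway.

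Lysosomal mRNAs were called in 7 of 52 entries with hnRNP K (13.5%) and 13 with La/SSB (25.0%). The shares over all entries were 17.7% and 15.4%, and the list median was -0.16. Ctsb, the protease cathepsin B, was at 12922, 14699 and 17256 CPM with hnRNP K and 2932, 3969 and 4450.1 CPM with La/SSB (1.98 ± 0.24, adjusted p = 1.22e-04). Tpp1, a lysosomal peptidase, differed by 2.60 ± 0.23. Ctsl, the related protease cathepsin L, was lower with hnRNP K, at 59.1, 57.3 and 57.8 CPM against 99.1, 145 and 147 CPM (-1.17 ± 0.24, adjusted p = 0.00315). The La/SSB count was 8 without hnRNP K RIP 1. Scaled by total counts, 3 lysosomal entries were higher with hnRNP K and 28 with La/SSB. In the same fit the splits were 3 against 27 for axonally localized mRNAs, 3 against 4 for neuronal entries, 1 against 5 for regeneration-associated genes and 3 against 13 for macrophage entries. They were 6 against 7 for proteoglycans and matrix enzymes, 3 against 17 for matrix glycoproteins, 5 against 31 for hnRNP and SR proteins, 1 against 29 for translation factors and 0 against 3 for adipocyte entries.

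mRNAs that other studies describe as bound by either protein were looked at by name. Of 10 entries for mRNAs known to bind hnRNP K, 4 were higher with hnRNP K and 1 with La/SSB (40.0% for hnRNP K). In a fit of all 18 libraries, the list median against Input was 0.03 with hnRNP K, with 3 entries higher and 0 lower. Over all entries 6.58% were higher and 6.47% lower. Against FLAG RIP the hnRNP K median was -0.12, with 2 higher and 1 lower, where 15.3% of all entries were higher and 21.6% lower. The La/SSB medians were -0.08 against Input and -0.99 against FLAG RIP. Ucp2, a mitochondrial carrier, was at 3684, 4579 and 5679 CPM with hnRNP K and 466, 849 and 645 CPM with La/SSB (2.83 ± 0.28, adjusted p = 4.13e-05). Src, a tyrosine kinase, was at 269, 246 and 262 CPM against 58.0, 106 and 82.4 CPM (1.66 ± 0.25, adjusted p = 4.62e-04). Cdkn1a, the cell cycle inhibitor p21, was at 193, 293 and 362 CPM against 72.5, 102 and 105 CPM (1.60 ± 0.27, adjusted p = 9.70e-04). Myc, a growth-promoting transcription factor, was called too (1.08 ± 0.35, adjusted p = 0.0342), but in only 1 of 6 fits without 1 library. Nefm was the 1 entry on the La/SSB side, and it was lost without hnRNP K RIP 1, hnRNP K RIP 3 or La/SSB RIP 2. Alox15 (0.93 ± 0.41), whose silencing by hnRNP K is a textbook case in erythroid cells, Ptgs2 (0.16 ± 0.37), Gap43, Mapt (-0.19 ± 0.52) and Tymp (-0.94 ± 0.48) did not pass the test. With total count scaling 2 entries of this list were higher with hnRNP K and 3 with La/SSB, and Ptgs2 was at -0.72.

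Of 12 entries for mRNAs known to bind La, 6 were higher with La/SSB (50.0%) and 0 with hnRNP K (median -0.98). Of all entries, 15.4% and 17.7% were. In a fit of all 18 libraries, the list median against Input was -0.07 with La/SSB and -0.52 with hnRNP K. Of the 12 entries, 0 were called against Input with La/SSB, and 5 were lower with hnRNP K. Over all entries, 0.0226% were higher and 0.0150% lower with La/SSB, and 6.47% were lower with hnRNP K. Against FLAG RIP the La/SSB median was -0.36, with 2 entries higher and 2 lower. The hnRNP K median was -1.31, with 0 higher and 8 lower. Over all entries, 10.5% were higher and 11.2% lower than FLAG RIP with La/SSB, and 15.3% and 21.6% with hnRNP K. Hspa5, the chaperone BiP, whose internal ribosome entry is described as La-dependent, was at 207, 204 and 208 CPM with La/SSB and 45.7, 44.2 and 67.6 CPM with hnRNP K (-1.97 ± 0.24, adjusted p = 1.22e-04). Lamb1, a laminin chain, was at 263, 272 and 198 CPM against 51.9, 76.3 and 89.1 CPM (-1.75 ± 0.26, adjusted p = 3.89e-04). Bcl2, which blocks apoptosis, was at 99.3, 59.3 and 43.7 CPM against 33.3, 26.6 and 23.6 CPM (-1.27 ± 0.33, adjusted p = 0.0110; lost without hnRNP K RIP 3, adjusted p = 0.0574), and Eef1a1 is given above. Both Rpl37 entries, on chromosomes 9 and 10, were called (-2.43 ± 0.53 and -2.54 ± 0.41). They lie elsewhere than the RefSeq gene on chromosome 2 and may be copies of it. Mdm2 (0.55 ± 0.36), Nfe2l2 (0.39 ± 0.26), Cdkn1b (0.38 ± 0.27), Xiap (0.16 ± 0.59) and both Ccnd1 entries (0.26 ± 0.27 and -0.68 ± 0.66) did not pass. The positive values of these turned negative with total count scaling, at -0.32 for Mdm2, -0.47 for Nfe2l2, -0.49 for Cdkn1b, -0.68 for Xiap and -0.62 for Ccnd1.

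Beyond the lists, the highest fold changes with hnRNP K included secreted and motor proteins. Sod3, the extracellular superoxide dismutase, was at 9241, 6304 and 5592 CPM with hnRNP K and 449, 479 and 384 CPM with La/SSB (4.01 ± 0.27, adjusted p = 8.36e-06). Dynlrb1, a light chain of the dynein motor, was at 704, 693 and 864 CPM against 45.3, 44.2 and 66.6 CPM (3.85 ± 0.25, adjusted p = 8.36e-06). Ifi47, an interferon-induced GTPase, was at 131, 132 and 144 CPM against 4.80, 13.0 and 22.2 CPM (3.34 ± 0.44). Ywhae, a 14-3-3 adaptor protein, was among the 8 most abundant entries on this side, at 7720.3, 6680.1 and 6814 CPM against 1469, 1885 and 1801 CPM (2.04 ± 0.21). Sod3, Dynlrb1 and Ifi47 were picked from entries whose groups did not overlap. Ywhae, picked by level, also had all hnRNP K libraries above all La/SSB libraries, as had 24.6% of all entries tested.

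On the La/SSB side the lowest ratio of an mRNA entry was that of Epb41l2, a membrane skeleton protein, at 154, 126 and 89.8 CPM with La/SSB and 2.40, 1.42 and 1.56 CPM with hnRNP K (-6.02 ± 0.36, adjusted p = 6.19e-06). Sugt1, a co-chaperone, was at 43.2, 38.2 and 24.8 CPM against 0.575, 2.54 and 0.246 CPM (-4.89 ± 0.66, adjusted p = 2.23e-04). Kdm4a, a histone demethylase, was at 23.9, 7.94 and 29.0 CPM against 0.384, 1.12 and 2.55 CPM (-3.80 ± 0.70). Cryz, a quinone reductase, reached its difference with 1 high library (22.4, 133 and 6.16 CPM against 2.68, 4.27 and 4.27 CPM; -3.81 ± 0.86), and its call was lost without that library, La/SSB RIP 2 (adjusted p = 0.0531). Ahnak, a giant scaffold protein, was an abundant entry on this side, at 2339, 2058 and 1320.2 CPM against 967, 709 and 505 CPM (-1.39 ± 0.28, adjusted p = 0.00300).

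Transcript length went along with the direction. Of 300 entries of 300 nt or less, 34.7% were higher with La/SSB and 5.33% with hnRNP K (median -1.28). Of these entries, 124 belong to the small RNA lists. Entries low in La/SSB RIP 1 may be missing from the table, and the part of that gap in the length trend was not tested. The share on the La/SSB side was 30.0% at 301 to 600 nt and 9.73% at 4001 to 6000 nt, and that on the hnRNP K side 5.89% and 25.8%. Over 6000 nt the shares were 13.7% and 24.7% and the median 0.09, below that at 4001 to 6000 nt (0.17). The median changed sign between 2001 to 3000 nt (-0.05) and 3001 to 4000 nt (0.15). When a smooth trend of fold change on length was removed, 20 of 57 polymerase III entries, 5 of 16 small nuclear entries and 7 of 56 small nucleolar entries stayed higher with La/SSB, all of them called before, while 3, 2 and 2 were higher with hnRNP K. The medians were then -0.91, -1.07 and -0.16, against -0.08 over all entries, and the 9 microRNA genes had a median of 0.11 with 0 called on that side and 1 with hnRNP K. Ribosomal proteins had 32 of 75 (median -1.08) and oxidative phosphorylation 21 of 79 (median -0.63). Chaperones (19 of 30, median -1.17), proteasome subunits (18 of 39) and collagens (16 of 36 with hnRNP K) moved little. The small RNAs are themselves the short end of the trend, so length and RNA class cannot be told apart for them.

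**Figure D4:**
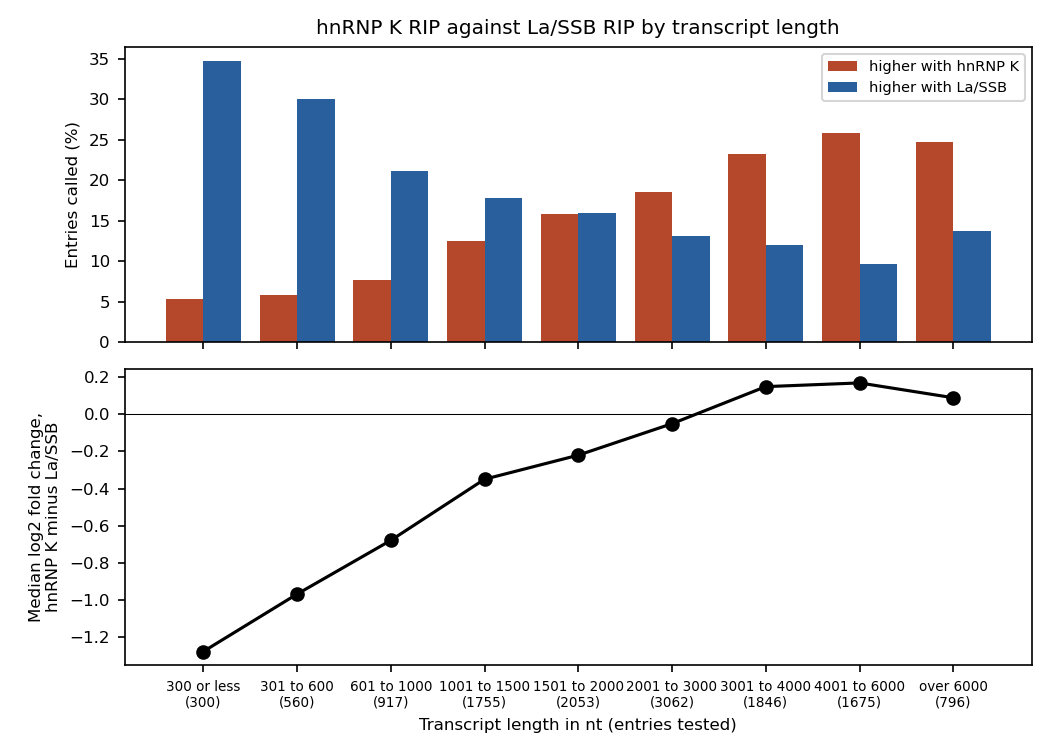
Entries called higher with hnRNP K (red) or with La/SSB (blue) in % of those tested (upper panel) and the median log2 fold change (hnRNP K minus La/SSB, lower panel) by transcript length in nt. The La/SSB share falls from 34.7% at 300 nt or less to 9.73% at 4001 to 6000 nt, while the hnRNP K share goes from 5.33% to 25.8%; over 6000 nt they are 13.7% and 24.7%.

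Each precipitate was also set beside Input and FLAG RIP in a fit of all 18 libraries (13300 entries). These comparisons share libraries with each other and with the comparison above, so their values are given side by side only. Against Input, 875 entries were higher and 861 lower with hnRNP K (6.58% and 6.47%). With La/SSB 3 were higher and 2 lower (0.0226% and 0.0150%), and 1059 had an unadjusted p under 0.05. In a fit of only the 6 libraries compared, chosen after seeing the data, hnRNP K had 2196 higher and 1973 lower, and La/SSB had 51 each way. Against FLAG RIP, 2031 were higher and 2868 lower with hnRNP K (15.3% and 21.6%), and 1394 and 1495 with La/SSB (10.5% and 11.2%).

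For many mRNA lists the hnRNP K value lay farther from Input than the La/SSB value. Ribosomal protein entries had a median of -2.29 with hnRNP K, 54 of 75 called lower and 1 higher, and -0.62 with La/SSB, 1 called lower and 0 higher. Oxidative phosphorylation had -1.65 and -0.41, chaperones -1.31 and 0.12, and proteasome subunits -1.35 and 0.13. Schwann entries had 0.76 and -0.14, and collagens 0.49 and -0.10. The polymerase III medians lay on both sides of Input, at -1.21 with hnRNP K and 1.95 with La/SSB. Few of the 66 entries were called against Input, 4 lower and 1 higher with hnRNP K, and 0 lower and 1 higher with La/SSB. Against FLAG RIP, 50 of 66 were called higher with La/SSB (median 4.55) and 18 higher with hnRNP K. Against FLAG RIP, ribosomal proteins had a median of -1.80 with hnRNP K and -0.06 with La/SSB, and chaperones -1.78 and -0.15. Oxidative phosphorylation had -2.76 and -1.44, with 24 of 80 entries called lower and 0 higher with La/SSB. Proteasome subunits had -2.64 and -1.26, with 11 of 41 lower and 0 higher with La/SSB. Schwann entries were at 1.51 and 0.57 and collagens at 1.88 and 0.91. The median of all entries against FLAG RIP was -0.32 with hnRNP K and -0.28 with La/SSB.

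Single transcripts gave different patterns. RNase_MRP was at 18.2, 21.0 and 16.2 CPM in Input and was called both ways, higher with La/SSB (3.70 ± 0.67, adjusted p = 0.0478) and lower with hnRNP K (-4.29 ± 0.72, adjusted p = 4.46e-04). Epb41l2, at 2.93, 15.1 and 2.89 CPM in Input, was also higher with La/SSB than in Input (4.07 ± 0.59, adjusted p = 0.0109). RNaseP_nuc on chromosome 15 was at 456, 387 and 241 CPM in Input. Its log2 fold change was -6.55 ± 0.71 with hnRNP K (adjusted p = 1.46e-05) and -1.52 ± 0.56 with La/SSB (adjusted p = 0.447), so its level with La/SSB was not above that in Input. Sod3 was at 1149, 789 and 601 CPM in Input, and was higher with hnRNP K (3.00 ± 0.30, adjusted p = 9.57e-06) and at -0.99 ± 0.29 with La/SSB (adjusted p = 0.286). Col1a1 was higher with hnRNP K (2.18 ± 0.35, adjusted p = 3.04e-04) and at -0.25 ± 0.34 with La/SSB.

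**Figure D5:**
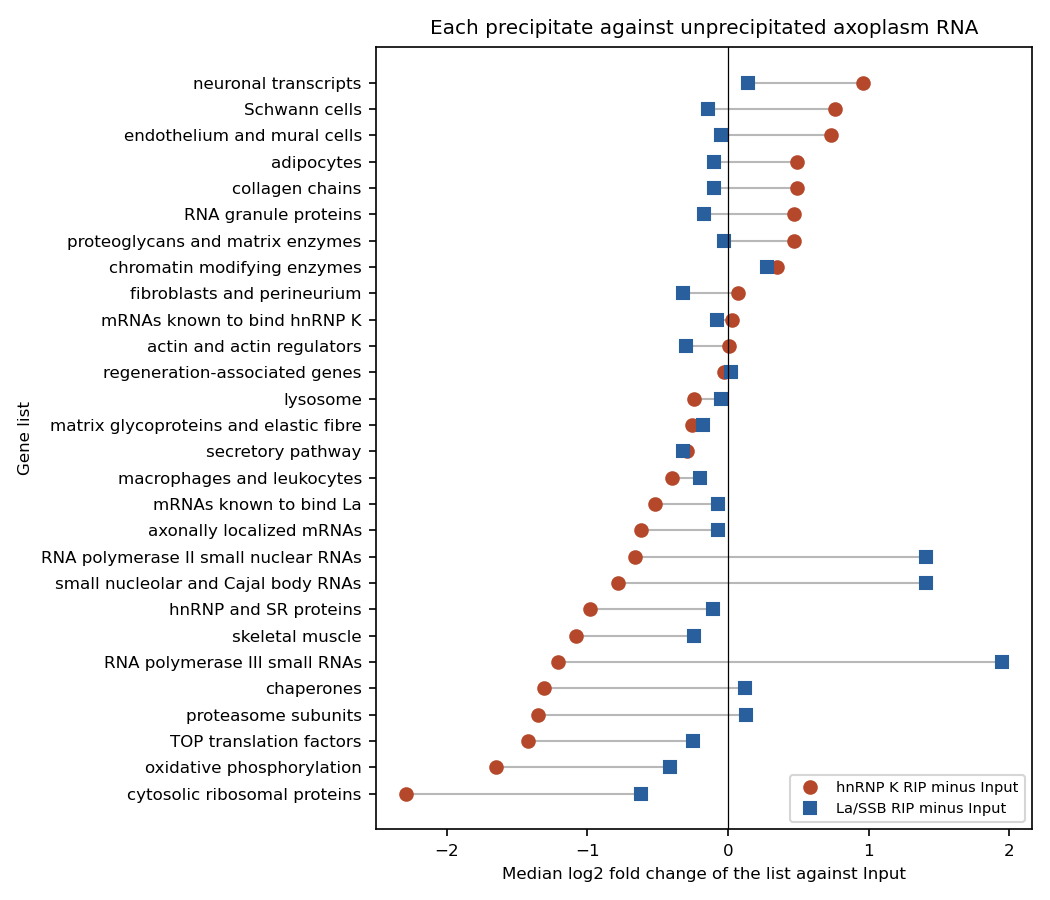
Median log2 fold change against Input of each gene list with at least 10 entries tested, for hnRNP K RIP (red circles) and La/SSB RIP (blue squares), joined by a line. Ribosomal proteins are lowest with hnRNP K (-2.29), and polymerase III small RNAs are highest with La/SSB (1.95).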

How the data were processed

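RNA of 6 immunoprecipitates, 3 with an hnRNP K and 3 with a La/SSB antibody, was compared, with 3 Input and 3 FLAG libraries beside them. The authors deposited 1 table of counts and FPKM values per transcript. Each deposited count is the read count plus 1, and the deposited FPKM values were used here only to derive transcript length (largest relative deviation 5.77e-15). CASAVA 1.8.2 and edgeR are named, per the submitters' processing notes; an aligner and a build are not given in the sources, so only chromosomes are printed for entries.

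Counts were fitted with edgeR 4.0.16 (R 4.3.3, limma 3.58.1): filterByExpr (minimum count 10, total 15), TMM scaling, the quasi-likelihood F-test on the 6 libraries (4 residual degrees of freedom) and Benjamini-Hochberg adjustment over 12964 entries at 0.05. Input and FLAG RIP comparisons came from 1 fit of 18 libraries (12 residual degrees of freedom). Levels are TMM-scaled CPM of reads (count minus 1). A library's floor of 3 reads was 0.246 to 0.305 TMM-scaled CPM for hnRNP K and 0.229 to 0.268 for La/SSB, covering counting error only. The fit was tested on simulated data.

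Named genes were the 15 highest and 15 lowest log2 fold changes among called entries with non-overlapping groups and a mean of at least 20 CPM in the higher group, the 8 most abundant called each way, the antibody targets, up to 3 members per list and direction by level, and all members of the lists of known targets. Marker genes of the sample check fall outside that rule and were chosen after their values were seen. A single transcript named by the rule is not reported here. The members and lists were chosen with earlier results of these data known. Replicate numbers are from the labels. Deviations from the group means correlated at 0.20, 0.12 and 0.13 between libraries sharing a replicate number, and at -0.15 to 0.06 otherwise. These weak values do not establish pairing, and the main fit used the group only. With the replicate as a block, 2681 entries were higher with hnRNP K and 2233 with La/SSB. Alternatives were other scalings (also DESeq2 1.42.0), filters, libraries in the fit, counts summed by symbol, removal of a length trend and leaving out each of the 6 libraries.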

Additional observations from a re-analysis of the deposited data

How the results depend on the processing

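Of the summary counts, that of entries higher with hnRNP K (2292) and with La/SSB (2001) moved most with total count scaling (797 and 5384), with all 15 RIP libraries in the fit (964 and 710) and with all 18 libraries (1054 and 979). Of the calls with 15 RIP libraries, 964 and 690 were among those of the 6-library fit. Leaving out each library in turn gave 1889 to 2497 entries higher with hnRNP K and 1197 to 2080 higher with La/SSB. The replicate block gave 2681 and 2233. DESeq2 gave 2672 and 2331, and removing the length trend 2299 and 1789. In a fit of only the 6 libraries compared, chosen after seeing the data, 4169 entries were called for hnRNP K against Input, 102 for La/SSB against Input, 2751 for hnRNP K against FLAG RIP and 674 for La/SSB against FLAG RIP. Of the called entries named in the report, the sign turned for the U6 entry on chromosome 1 when summed by symbol (-2.46, adjusted p = 1.50e-04), for S100b with total counts (-0.16, adjusted p = 0.590) and for Mir675 with the length trend removed (0.31, adjusted p = 0.540). The cause was not tested. Low read numbers limit what can be said of single small RNA entries.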
